A study of Mus musculus with 8 samples.

Results

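The aminoacyl-tRNA synthetase genes were described in 1 library of mouse bone marrow mesenchymal stem cells. Genes were taken by symbol, namely a capital letter followed by "ars" with an optional 1 or 2, together with Eprs, Farsa and Farsb. This gave 37 of the 21935 genes in the deposited table of all genes. Of the 37, 17 have names ending in 2 and encode the mitochondrial enzymes, and 20 do not and encode mainly the cytosolic ones. The series lists 8 samples of wild-type cells of a purchased line under osteogenic differentiation, for 4 kinds of polycaprolactone (PCL) scaffold at day 3 and day 7. Per the treatment protocol, scaffolds were soaked in DMEM with serum to prepare extracts for the cells. The library used here carries the name PCL in the deposited table, which is the scaffold with neither the mitochondria-targeted peptide SS31 nor the cell-binding peptide E7. Its name gives no day, so it may be either of the 2 samples labelled PCL. The names of the other 3 libraries add the letters R, B or both to PCL, and neither letter is explained in the labels, so their values were not used here and no comparison between scaffolds was made. The labels give no mouse strain, and they do not say whether the 3 RNA samples mentioned in the extraction protocol were pooled. With 1 library there is no replicate error. All intervals below are exact 95% intervals that cover counting error only, and no differences were tested.

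Aminoacyl-tRNA synthetases join each amino acid to its transfer RNA (tRNA) and so supply the ribosome with charged tRNAs. Mammalian cells use one set in the cytosol and another, also encoded in the nucleus and imported, that charges the tRNAs of mitochondrial DNA. Several cytosolic enzymes assemble into a multisynthetase complex held by the scaffold proteins encoded by Aimp1, Aimp2 and Eef1e1. The genes of many cytosolic synthetases are known targets of ATF4, the transcription factor of the amino acid and integrated stress responses, whose sites are called C/EBP-ATF response elements.

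The library held 14619380 reads counted on genes, of which 3.89% fell on genes of the mitochondrial chromosome, and 14480 genes had at least 1 read. Levels are the deposited FPKM, read counts divided by gene length and by the depth of the library. Of 11 mesenchymal stromal markers, 10 had more than 3 reads, among them Col1a1 at 227 FPKM and Pdgfrb at 73.5 FPKM, while Nt5e had 2 reads. The 6 osteoblast markers were uneven, with Spp1 at 1104 FPKM and Runx2 at 5.43 FPKM. Alpl stood at 0.492 FPKM, Sp7 had 5 reads, Bglap had 1 and Ibsp had 0. Of 8 leukocyte markers, 4 had 0 reads, Ptprc among them, and the highest was Cd68 at 4.41 FPKM. Of 4 endothelial markers, Cdh5 and Kdr had 0 reads, Pecam1 had 6 and Tek had 7. All 3 erythroid markers had 0 reads. The adipocyte list was at or below 1.49 FPKM except Fabp4 at 92.8 FPKM. These marker levels describe the culture as a whole, in which fewer cells of a type and less RNA per cell cannot be told apart.

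Every synthetase gene was detected, from 72 reads for Pars2 to 14771 reads for Lars2. The 20 genes with names not ending in 2 had a median level of 31.7 FPKM, with a range from 14.7 to 82.1 FPKM. The 17 mitochondrial genes had a median level of 3.75 FPKM, with a range from 0.776 to 91.1 FPKM. The ratio of the medians was 8.46. In the order of all detected genes, the median percentile was 89.0 for the first set and 45.8 for the mitochondrial set. All 20 genes of the first set, and 6 of the 17 mitochondrial genes, lay above the median of all detected genes, 4.599 FPKM. Lars2 exceeded every cytosolic gene. Rars2 at 14.96 FPKM (13.8 to 16.2) and Eprs at 14.7 FPKM (14.2 to 15.1) did not differ beyond counting error, and with the longest coding transcript as length Eprs was higher, at 54.1 against 22.2 FPKM.

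**Figure D1:**
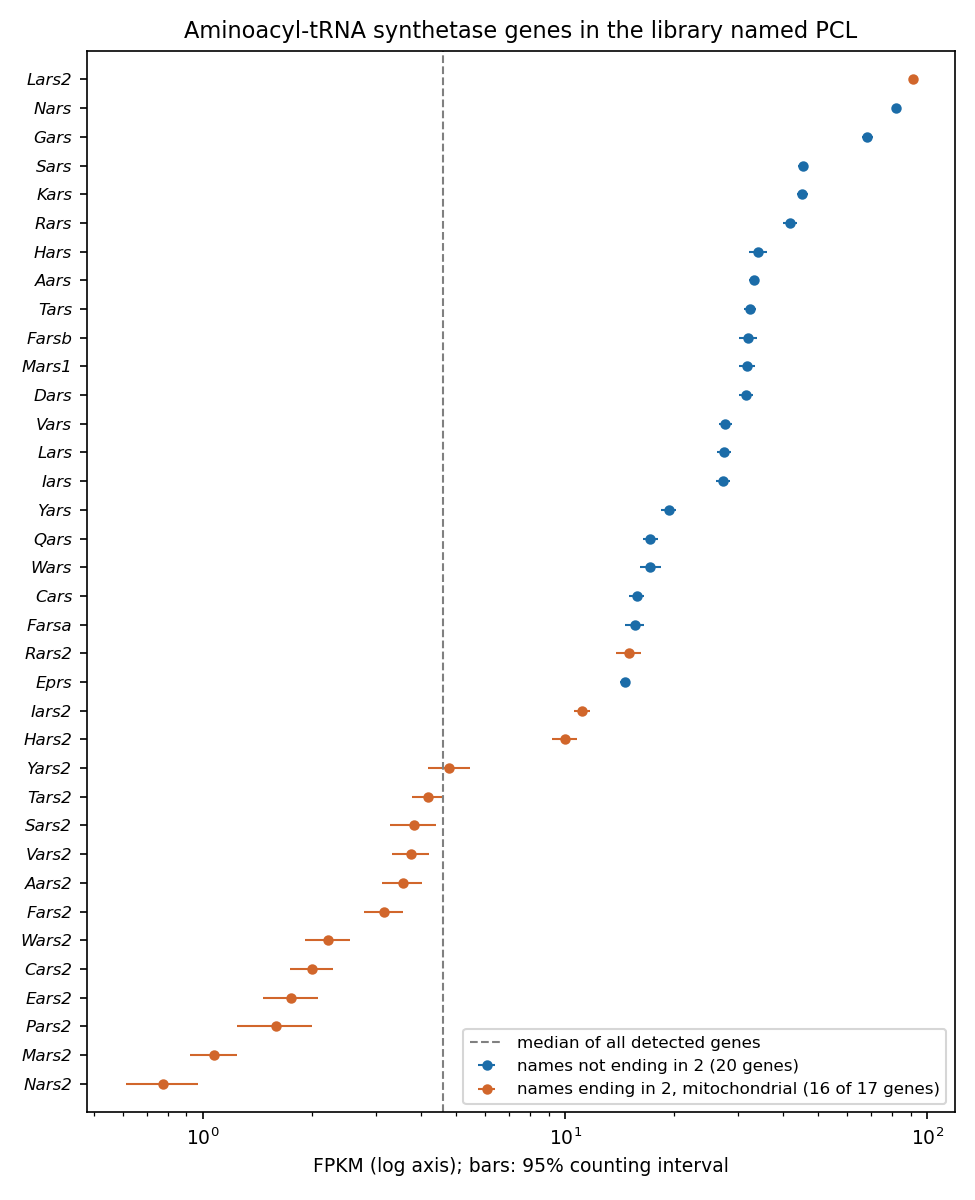
Deposited FPKM of 36 of the 37 synthetase genes in the library named PCL, on a log axis, with 95% counting intervals as bars and the median of all detected genes as a dashed line. Apart from Lars2 at 91.1 FPKM and Rars2 at 14.96 FPKM, the mitochondrial genes lie below every gene of the other set.

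Among the genes with names not ending in 2, the asparaginyl enzyme Nars was highest. Nars (chromosome 18, 64499647 to 64516652, minus strand, mm10) had 5230 reads and 82.1 FPKM (79.9 to 84.4). The glycyl enzyme Gars (chromosome 6, 55038007 to 55079500, plus strand) followed with 3112 reads and 68.2 FPKM (65.9 to 70.7). These levels place both genes above the 95th percentile of detected genes, at 96.2 and 95.4. The seryl enzyme Sars (chromosome 3, 108424865 to 108445209, minus strand) stood at 45.3 FPKM (43.8 to 46.9). The lysyl enzyme Kars (chromosome 8, 111993443 to 112011323, minus strand) stood at 45.2 FPKM (43.6 to 46.8). The intervals of Sars and Kars overlap almost entirely, so these neighbours do not differ beyond counting error. The arginyl enzyme Rars was next at 41.8 FPKM (40.0 to 43.7).

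The middle of the cytosolic set lay within narrow ranges on the deposited scale. Hars, which charges histidine tRNAs, Aars for alanine, Tars for threonine, Farsb (the beta subunit of the phenylalanyl enzyme), Mars1 for methionine and Dars for aspartate lay between 31.6 and 34.0 FPKM. The branched-chain enzymes Vars for valine, Lars for leucine and Iars for isoleucine lay between 27.3 and 27.7 FPKM. Within each of these 2 clusters the counting intervals of all genes overlapped those of their neighbours in rank. With the longest coding transcript as length the first cluster spread from 36.7 FPKM for Mars1 to 63.4 FPKM for Dars, and the branched-chain enzymes lay between 32.5 and 37.5 FPKM. The lowest levels were those of Yars at 19.3 FPKM, Qars and Wars at 17.2 FPKM each, Cars at 15.7 FPKM, Farsa at 15.6 FPKM and Eprs at 14.7 FPKM. Farsa and Farsb encode the alpha and beta subunits of one enzyme, and Farsb had the higher level by this scale, 31.9 (30.2 to 33.8) against 15.6 (14.6 to 16.5) FPKM. The size of that gap depends on the gene length used, as given below. Eprs encodes a single protein with both the glutamyl and the prolyl activity.

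Among the mitochondrial genes, Lars2, the leucyl enzyme, stood apart from the others. Lars2 (chromosome 9, 123366927 to 123462666, plus strand) had 14771 reads and 91.1 FPKM (89.7 to 92.6), rank 487 of all genes. Below it lay the arginyl enzyme Rars2 at 14.96 FPKM (13.8 to 16.2), the isoleucyl enzyme Iars2 at 11.1 FPKM (10.6 to 11.7) and the histidyl enzyme Hars2 at 9.99 FPKM (9.22 to 10.8). Lars2 alone held 72.3% (71.7 to 72.9, Clopper-Pearson) of the 20432 reads on mitochondrial synthetases. Without it the remaining 16 genes ranged from 0.776 to 14.96 FPKM with a median of 3.65 FPKM.

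Yars2, Tars2, Sars2, Vars2, Aars2 and Fars2, for tyrosine, threonine, serine, valine, alanine and phenylalanine, lay between 3.15 and 4.78 FPKM, near the median of all detected genes. The 6 lowest were below that group. The tryptophanyl enzyme Wars2 stood at 2.21 FPKM (1.91 to 2.54) and the cysteinyl enzyme Cars2 at 2.004 FPKM (1.74 to 2.29). The glutamyl enzyme Ears2 stood at 1.75 FPKM (1.47 to 2.08) and the prolyl enzyme Pars2 (chromosome 4, 106651069 to 106655282, plus strand) at 1.59 FPKM (1.25 to 2.005). Neighbours among these 4 overlap in their intervals. The methionyl enzyme Mars2 (chromosome 1, 55237177 to 55248470, plus strand) followed at 1.07 FPKM (0.920 to 1.24). The asparaginyl enzyme Nars2 (chromosome 7, 96951505 to 97064758, plus strand) was lowest, with 79 reads and 0.776 FPKM (0.614 to 0.967).

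Setting the enzymes for the same amino acid side by side gave 17 pairs. The cytosolic gene had the higher level in 16 of the 17, each with a counting interval above 1, and the leucine pair was the exception. Asparagine showed the widest gap, since Nars was the highest cytosolic gene and Nars2 the lowest mitochondrial one, a ratio of 106 (84.8 to 134). For methionine, Mars1 exceeded Mars2 by a ratio of 29.6 (25.4 to 34.8). That ratio depends on the deposited lengths, 11294 bases for Mars2 against 3423 for Mars1, and in reads alone it was 8.98. The coding-transcript length leaves the level of Mars2 unchanged. The ratio of Sars to Sars2 was 11.9 (10.2 to 13.8) and that of Farsb to Fars2 was 10.1 (8.86 to 11.6). Alanine, proline, glutamate, cysteine, threonine, tryptophan and valine fell between 7.39 and 9.31, with Eprs standing as the cytosolic partner of both Ears2 and Pars2. Their intervals on this scale overlap, and the order within these 7 was not tested. With the longest coding transcript as length, described below, the same 7 ratios ran from 4.22 for cysteine to 33.4 for proline, with glutamate at 12.3, and that of Farsb to Fars2 was 4.82.

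On the deposited scale the smallest gaps in the same direction were those of tyrosine at 4.04 (3.51 to 4.67), histidine at 3.41 (3.09 to 3.76), arginine at 2.80 (2.55 to 3.07) and isoleucine at 2.45 (2.29 to 2.62). With the coding transcript as length, isoleucine at 1.80, arginine at 2.89 and histidine at 3.27 were again the smallest. Tyrosine at 7.35 was above cysteine, phenylalanine, threonine and tryptophan on that length. For leucine the direction was opposite, and the ratio of Lars to Lars2 was 0.301 (0.288 to 0.315). Over the pairs, the levels of the 2 enzymes were weakly related, with a Spearman correlation of 0.19 over 17 pairs and 0.26 over the 16 without leucine. This is given as a description, since the pairs share 1 library and Eprs enters 2 of them.

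**Figure D2:**
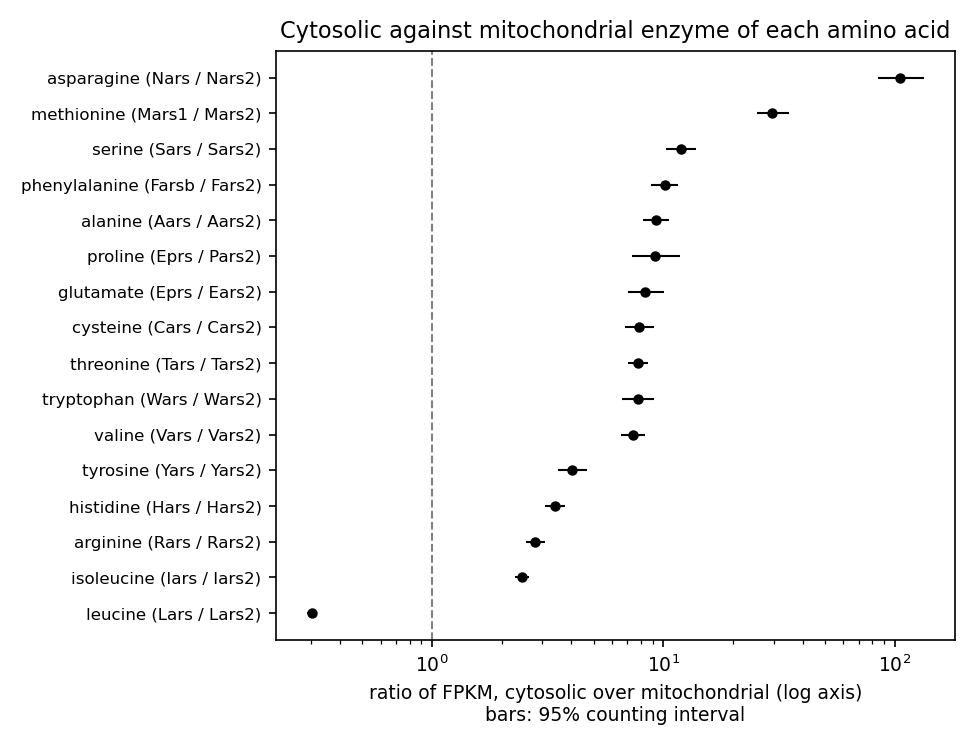
Ratio of the FPKM of the cytosolic gene to that of the mitochondrial gene for 16 of the 17 amino acids with both, on a log axis, with 95% counting intervals and a dashed line at equal levels. The ratios run from 0.301 for leucine to 106 for asparagine.

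The position of both sets among all genes is shown by the histogram of detected genes. The cytosolic genes occupied percentiles 76.5 to 96.2, and the mitochondrial genes were spread over percentiles 25.9 to 96.6, or 25.9 to 76.9 without Lars2. In reads, the cytosolic set took 47163 (0.323% of the library) and the mitochondrial set 20432 (0.140%), or 5661 (0.0387%) without Lars2.

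**Figure D3:**
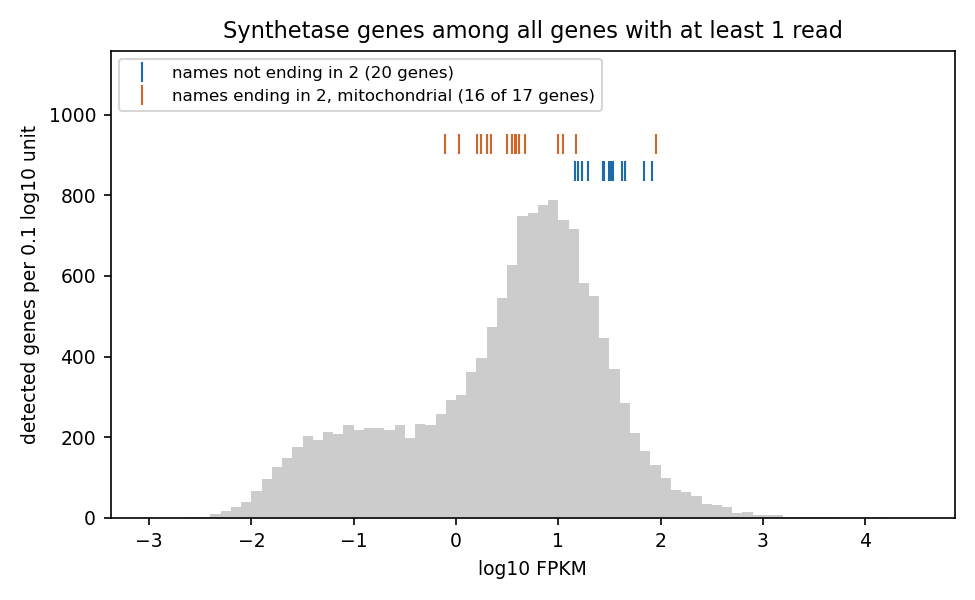
Histogram of log10 FPKM for the 14480 genes with at least 1 read, with ticks for 36 of the 37 synthetase genes above it. Ticks of the cytosolic set lie to the right of the main peak, and those of the mitochondrial set spread across it, with Lars2 alone at the right.

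Part of the order within the sets depended on the gene length. For all 37 genes the deposited length equalled the summed length of all annotated exons in GENCODE M21, including exons of transcripts with retained introns. It exceeded the longest protein-coding transcript by a median factor of 1.502 in the cytosolic set and 1.48 in the mitochondrial set, and by up to 3.80 for Cars2 and 3.69 for Eprs. Levels were also recomputed with the coding transcript as length and all reads of the gene. Reads outside that transcript were not removed, so these levels are too high where such reads occur. With this length Eprs rose in rank from 22 to 8 of 37, at 54.1 FPKM. Farsa at 38.7 drew near to Farsb at 41.1. On that scale Lars2, whose 11089 deposited bases include 5 transcripts with retained introns beside a coding transcript of 3894 bases, reached 259 FPKM, above Nars at 130. Mars2, with a single annotated transcript of 11294 bases and 586 codons, became the lowest gene at 1.07 FPKM. The direction of all 17 pairs was the same on this scale, while the sizes of several ratios moved as given above, and the ratio of the medians was 6.12. For leucine the direction could not have changed, since all reads were kept and the length of Lars2 fell by a larger factor than that of Lars. The ratio of Lars to Lars2 became 0.143.

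**Figure D4:**
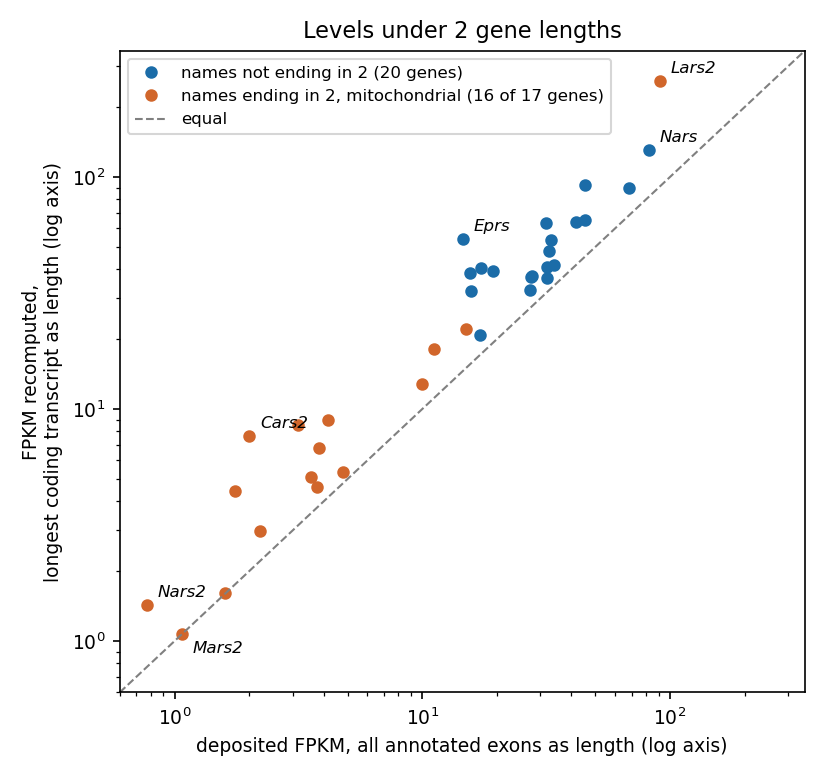
Level of 36 of the 37 synthetase genes with the length of all annotated exons (x axis, deposited FPKM) against the level with the longest coding transcript as length (y axis, FPKM recomputed on that length), both on log axes. Eprs and Cars2 lie farthest above the dashed line of equal levels, and Lars2 is highest on both axes. The y axis keeps all reads of each gene, also any outside the coding transcript.

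Some genes serve both compartments. Gars and Kars have no partner ending in 2, since each single gene is known to give a cytosolic and a mitochondrial enzyme, and they ranked 2 and 4 in their set. Qars also lacks a partner, because mitochondria make glutaminyl-tRNA by a different route, through the amidotransferase encoded by Qrsl1, Gatb and Gatc. These stood at 2.01, 5.14 and 13.2 FPKM. In the deposited Gene Ontology (GO) annotation, 9 of the 20 genes with names not ending in 2 carry the term mitochondrion. They are Nars, Gars, Sars, Kars, Rars, Hars, Aars, Mars1 and Vars, and all but Gars and Kars have a separate partner ending in 2. Those 9 had a median of 41.8 FPKM with a range from 27.7 to 82.1 FPKM, and the 11 without the term had a median of 19.3 FPKM with a range from 14.7 to 32.4 FPKM. With the coding transcript as length, the ranges of these subsets overlapped more widely, from 36.7 to 130 and from 20.9 to 63.4 FPKM. Among the mitochondrial genes, 16 of 17 carry the term and Cars2 does not.

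The GO term for the multisynthetase complex marked 8 genes, all cytosolic: Eprs, Iars, Lars, Mars1, Qars, Rars, Kars and Dars. Their levels ran from 14.7 FPKM for Eprs to 45.2 FPKM for Kars, with a median of 29.5 FPKM. The other 12 cytosolic genes had a median of 32.2 FPKM and a range from 15.6 to 82.1 FPKM, so the subsets overlapped over most of their range. The scaffold genes of the complex lay below the median of the 8 genes, with Aimp2 at 14.1 FPKM (12.6 to 15.7), Aimp1 at 12.7 FPKM (11.98 to 13.5) and Eef1e1 at 7.58 FPKM (6.82 to 8.41). The interval of Aimp2 includes the level of Eprs, so these genes did not differ beyond counting error. The coding-transcript length was not applied to the scaffold genes. The median length of the longest coding sequence was 691 codons in the cytosolic set and 552 in the mitochondrial set. The ranges overlapped, from 481 to 1512 (Eprs) codons in the cytosolic set and from 360 (Wars2) to 1060 in the mitochondrial set.

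Genes that act beside the synthetases were detected throughout, from lists of known partners. Those listed under cytosolic elongation, in which charged tRNA is carried to the ribosome and moved along, ranged from 32.0 FPKM for Eef1d to 3240 FPKM for Eef1a1. In the mitochondrial elongation list, Tufm, the counterpart of Eef1a1, stood at 41.7 FPKM, and Gfm1, Tsfm and Gfm2 at 12.2, 8.76 and 2.75 FPKM. Not every gene on these lists carries or moves tRNA itself. Mtfmt, which formylates the mitochondrial initiator methionyl-tRNA, stood at 4.49 FPKM. Of 10 genes for processing and modification of mitochondrial tRNA, 9 lay between 3.61 and 11.9 FPKM, and Hsd17b10, a subunit of mitochondrial RNase P that also acts in amino acid breakdown, stood at 90.0 FPKM. The 5 synthetase-like and editing genes had a median of 2.57 FPKM, with Dtd2 at 8.67, Dtd1 at 4.16, Prorsd1 at 2.57, Tarsl2, a threonyl synthetase paralog, at 1.41 and Aarsd1 at 0.224 FPKM, the last from 10 reads. The selenocysteine route, through Pstk, Sepsecs and Eefsec, lay between 2.55 and 6.54 FPKM. All 9 listed genes of the ATF4 pathway were above the median of detected genes, with Atf4 itself at 204 FPKM, the serine synthesis enzymes Phgdh and Psat1 at 87.9 and 69.0 FPKM, the asparagine synthetase Asns at 52.4 FPKM and Trib3 lowest at 13.1 FPKM. Without a second condition these are levels and not responses.

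**Figure D5:**
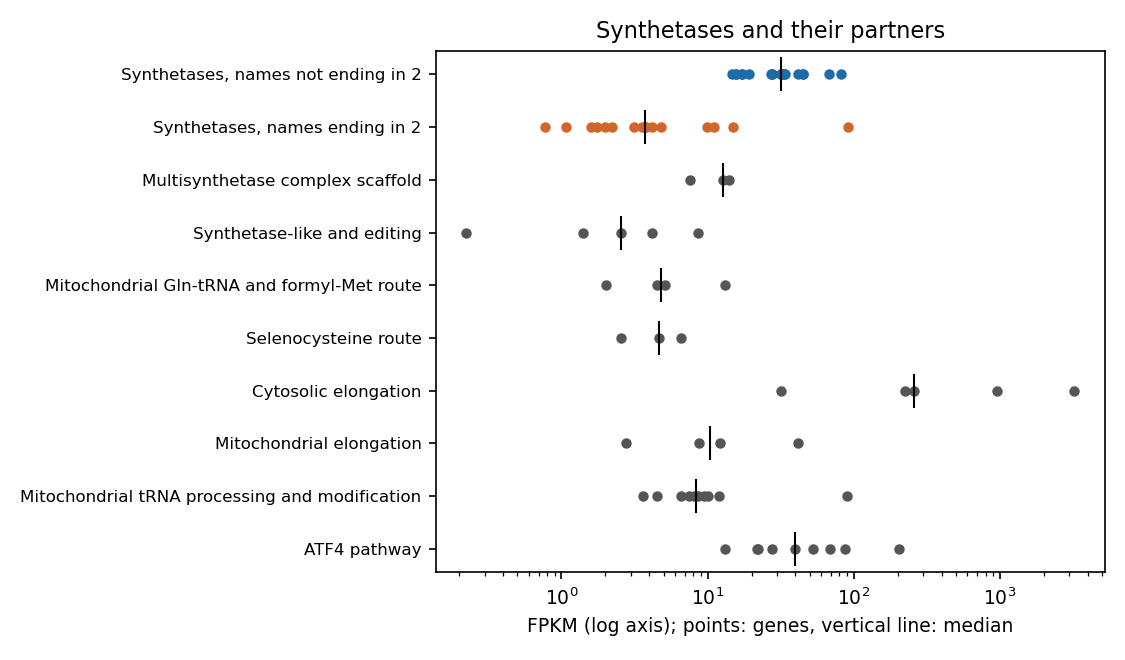
Deposited FPKM on a log axis for 36 of the 37 synthetase genes and for each gene of 8 lists of partner genes (points), with the median of each whole list as a vertical line. Medians are 31.7 FPKM for the cytosolic synthetases, 3.75 FPKM for the mitochondrial ones, 257 FPKM for the cytosolic elongation list, 10.5 FPKM for the mitochondrial elongation list and 39.7 FPKM for the ATF4 pathway list.

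Promoter sequences, from 250 bases before to 50 bases after an annotated start, were found in RefSeq (GRCm38.p6, the build of mm10) for 27 of the 37 genes, 13 cytosolic and 14 mitochondrial. They were searched on both strands for the core of the C/EBP-ATF response element, TGATGNAA. It was present in 5 of the 13 cytosolic genes, Aars, Gars, Iars, Tars and Yars, and in 0 of the 14 mitochondrial genes, beside 3.97% of all 32851 promoters of this length. The sequences of the 5 are printed because they hold this element. Each runs 5′ to 3′ on the strand of the gene, the annotated start follows the first 250 bases, and capitals mark the element or its reverse complement.

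Aars: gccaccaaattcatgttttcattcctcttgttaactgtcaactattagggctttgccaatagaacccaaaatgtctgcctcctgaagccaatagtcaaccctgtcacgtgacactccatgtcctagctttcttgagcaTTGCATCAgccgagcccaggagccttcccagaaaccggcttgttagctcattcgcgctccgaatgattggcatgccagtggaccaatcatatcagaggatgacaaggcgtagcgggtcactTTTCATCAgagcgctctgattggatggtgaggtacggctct

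Gars: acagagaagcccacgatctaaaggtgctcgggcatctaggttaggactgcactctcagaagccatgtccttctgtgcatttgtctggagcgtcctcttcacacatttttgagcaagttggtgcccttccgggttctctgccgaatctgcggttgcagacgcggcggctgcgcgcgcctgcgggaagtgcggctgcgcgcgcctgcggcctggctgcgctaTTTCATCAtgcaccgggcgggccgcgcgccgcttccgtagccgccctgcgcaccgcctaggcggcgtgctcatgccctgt

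Iars: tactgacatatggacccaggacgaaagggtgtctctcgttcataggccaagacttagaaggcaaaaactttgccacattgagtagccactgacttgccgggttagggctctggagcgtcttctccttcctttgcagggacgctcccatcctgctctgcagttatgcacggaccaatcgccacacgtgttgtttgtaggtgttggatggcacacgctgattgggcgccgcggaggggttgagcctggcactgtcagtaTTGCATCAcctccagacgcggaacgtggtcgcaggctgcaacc

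Tars: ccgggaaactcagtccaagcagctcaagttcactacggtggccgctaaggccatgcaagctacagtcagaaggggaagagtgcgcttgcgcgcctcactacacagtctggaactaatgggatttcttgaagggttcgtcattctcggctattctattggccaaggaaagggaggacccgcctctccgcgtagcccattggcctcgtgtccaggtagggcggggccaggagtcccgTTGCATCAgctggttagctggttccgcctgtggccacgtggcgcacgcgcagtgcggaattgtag

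Yars: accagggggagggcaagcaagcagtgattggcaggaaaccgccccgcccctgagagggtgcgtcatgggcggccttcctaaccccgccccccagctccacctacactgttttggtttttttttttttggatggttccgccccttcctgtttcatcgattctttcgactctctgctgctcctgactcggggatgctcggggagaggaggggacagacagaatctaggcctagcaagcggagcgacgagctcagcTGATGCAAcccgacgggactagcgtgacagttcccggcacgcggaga

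In the coordinates of GRCm38.p6 these windows are chr8:111033592-111033891 on the plus strand for Aars, chr6:55037751-55038050 on the plus strand for Gars, chr13:49681880-49682179 on the plus strand for Iars, chr15:11399609-11399908 on the minus strand for Tars and chr4:129189653-129189952 on the plus strand for Yars. Aars holds the element at 2 places, with first bases at -112 and at 10 relative to the start, where the start is base 1. The first base lies at -30 in Gars, -15 in Tars, 4 in Yars and 8 in Iars. The element reads on the strand of the gene in Yars and on the opposite strand in the other 4. The levels of the 5 genes, 68.2 FPKM for Gars, 33.2 FPKM for Aars, 32.4 FPKM for Tars, 27.3 FPKM for Iars and 19.3 FPKM for Yars, lay within the range of the cytosolic genes.

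Further motifs were counted in the same way. The core of the NRF1 site, GCATGCGC, bound by a factor known for controlling nuclear genes of mitochondria, was found in 3 of 14 mitochondrial genes, Rars2, Vars2 and Wars2, and in 0 of 13 cytosolic genes, beside 2.71% of all promoters. The core of the YY1 site, AAGATGGC, was found in 3 mitochondrial genes, Aars2, Wars2 and Yars2, and in 1 cytosolic gene, Farsa, beside 2.75%. The ETS core CCGGAAG was found in 5 cytosolic and 4 mitochondrial genes, beside 8.86%. The E-box CACGTG was found in 4 cytosolic genes, Aars, Farsb, Iars and Tars, and in 1 mitochondrial gene, Ears2, beside 7.15%. All motifs were matched without mismatch. The E-box reads the same on both strands and was counted once per gene, and a match is a description of the sequence. Base composition was similar in the 2 sets, with a median of 56.0% G and C in the cytosolic and 58.0% in the mitochondrial promoters, against 52.7% in all promoters. The median number of CpG dinucleotides was 16, 18 and 7 in the same order.

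Several genes share sequence or position with others, which limits how exactly their reads can be assigned. The labels do not say whether the counting used strand. By deposited coordinates 10 of the 37 genes overlap a gene on the opposite strand. Hars and Hars2 overlap head to head by 198 bases. Iars2 overlaps Rab3gap2, which had 1369 reads, by 2034 bases, and 36.6% of the 50-base words of its longest coding transcript lie in transcripts of that gene. Cars2 overlaps Naxd, which had 908 reads, by 984 bases, and 17.8% of its words are shared. Aars overlaps Exosc6 on the same strand by 1326 bases, and Exosc6 was listed at 0 reads. Of the words of Iars, 8.61% are also in the processed pseudogene Gm4849. Of the words of the Lars2 coding transcript, 3 of 3845 occur, in the same orientation, in transcripts of another gene, Gm15564. Words were taken only from the coding transcript of 3894 bases, so other sequence within the 11089 deposited bases of Lars2 was not searched. The deposited counts are per gene, so where the reads of Lars2 lie within the gene was not tested.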

How the data were processed

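RNA of the cells was extracted with TRIzol and made into libraries with a SMARTER mRNA kit, per the labels' protocols. The authors deposited a read count per gene, not normalized, and an FPKM value per gene, per the file headers. The FPKM of the authors matched the count divided by the deposited gene length and the summed counts of the library to within 0.01% for every detected gene. The submitters' processing notes name mm10. The aligner, the counting program and its strand setting were not given in the sources used here. A further 12 columns of per-library values match no sample and were not used. The library named PCL was taken as 1 library of the PCL group, which holds 2 samples. Protein sequences were not used here.

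Members and lists were chosen with earlier results of these data known. Counts and medians are over all members, and the own values of 1 member and of its pair are not reported here. The others are given, with intervals for the 5 highest and 5 lowest and for the pairs. Counting intervals of single genes are exact Poisson intervals and those of ratios and shares exact binomial ones, at 95%. For 0 reads the upper limit stays above 0, for instance 0.122 FPKM for Ibsp. The floor used for the marker counts was 3 reads. Percentiles are over genes with at least 1 read. Where a symbol had 2 identifiers, as Ddit3 did, that with more reads was used. Transcripts came from GENCODE M21 and promoters from RefSeq. The promoter table was matched by symbol or gene ID and gave no entry for 10 members, Cars, Hars, Hars2, Lars, Nars, Pars2, Rars, Vars and Wars among them. The software was Python 3.11.15 with pandas 2.3.3, NumPy 2.4.6, SciPy 1.17.1 and matplotlib 3.10.9.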

Additional observations from a re-analysis of the deposited data

How the results depend on the processing

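The ratio of the median levels, 8.46, lay between 7.92 and 8.68 with raw counts, the split by the deposited mitochondria table, and without Gars and Kars, without Eprs, Farsa and Farsb or without Lars2. Levels recomputed from counts and a minimum of 10 reads could not change it. The deposited FPKM already equals the recomputed one, and every synthetase gene had at least 72 reads. The ratio was 6.89 from log2(FPKM + 1), 6.12 with the longest coding transcript as length, and 1.83 when genes were split by the GO term mitochondrion. The GO split moves 9 cytosolic genes to the mitochondrial side and Cars2 to the cytosolic side. The split by the deposited mitochondria table moves Hars2 and Sars2 to the cytosolic side. The mitochondrial share of summed FPKM, 20.1%, was 30.2% in reads, 26.4% with the coding transcript as length, 23.3% without Gars and Kars, 21.8% without Eprs, Farsa and Farsb, and 10.2% without Lars2. The number of pairs with a higher cytosolic level was 16 in each of the 4 alternatives run. The median percentiles, 89.0 and 45.8, were 86.8 and 34.7 among genes with at least 10 reads and 92.8 and 64.2 among all genes in the table, as the background shrinks or grows. The coding-transcript length and the omission of Lars2 were chosen after seeing the data. No replicate could be left out, since there is 1 library, and depth limits the lowest genes, whose intervals are widest.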
